A study of Homo sapiens with 4 samples.

Results

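The PNUTS phosphatase complex is described here through the transcripts of its 6 genes in 22Rv1 cells, a line derived from a castration-resistant prostate carcinoma. The genes are the scaffold PPP1R10, which encodes PNUTS, the partners WDR82 and TOX4, and the protein phosphatase 1 (PP1) catalytic subunits PPP1CA, PPP1CB and PPP1CC. They were taken by gene symbol from the 63241 genes of the table, each matched 1 row, and all 6 were among the 14018 genes with a mean of at least 1 TPM (a length-scaled share of a library, in which all genes sum to the same total). The set was chosen with the TPM values of this contrast known, so the members' differences are given as a description, without p-values, and their calls are counted once beside the share of all genes. Cells grown in the same serum-supplemented medium were exposed for 12 h to 40 nM JMC45 (a small molecule directed at CDK9, taken here to be the CDK9 degrader that the series title names D45, an identity the labels do not state) or to the DMSO vehicle. There were 2 libraries per group, made from poly(A)-selected RNA. Nothing in the labels states separate cultures for the 2, so the errors and p-values cover the spread between libraries and this may be technical spread.

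PNUTS holds a PP1 catalytic subunit in the nucleus together with WDR82, a WD-repeat protein that binds the phosphorylated tail of RNA polymerase II, and TOX4, an HMG-box protein. The complex removes phosphates from the polymerase tail and from the elongation factor SPT5, sites on which CDK9 and other transcriptional kinases act, and it slows the polymerase at the ends of genes, where the exonuclease XRN2 completes termination. PNUTS is also known to bind MYC and to slow its turnover. The catalytic subunits are shared with many other PP1 holoenzymes, so their transcripts are not specific to this complex, and WDR82 also belongs to the SETD1 histone methyltransferase complexes.

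Promoter sequences were available for 5 of the 6 members in the RefSeq-based table (GRCh38.p14, 250 bases before to 50 bases after an annotated start, 300 bases each). Those of the member with the largest decrease (PPP1R10), of its partner WDR82, and of the catalytic genes with the largest (PPP1CC) and the smallest (PPP1CB, first of its 2 entries) difference are printed 5′ to 3′ on the gene's strand. Capitals mark matches on either strand to 6 motifs. The TATA element was searched as TATAAA and the NF-Y motif as CCAAT. The GC box was searched as GGGCGG, which binds Sp1, and the cyclic AMP response element as TGACGTCA. The E-box, which MYC and its partners bind, was searched as CACGTG, and the core of the YY1 motif as GCCATNTT. Neighbouring matches can merge in a run of capitals.
PPP1R10, chr6:30617194-30617493, minus strand: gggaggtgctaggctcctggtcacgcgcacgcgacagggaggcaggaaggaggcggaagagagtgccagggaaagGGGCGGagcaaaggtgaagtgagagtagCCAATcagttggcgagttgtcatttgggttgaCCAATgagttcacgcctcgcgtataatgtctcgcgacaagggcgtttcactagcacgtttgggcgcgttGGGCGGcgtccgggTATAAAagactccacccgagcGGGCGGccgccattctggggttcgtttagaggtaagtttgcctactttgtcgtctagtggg
WDR82, chr3:52278600-52278899, minus strand: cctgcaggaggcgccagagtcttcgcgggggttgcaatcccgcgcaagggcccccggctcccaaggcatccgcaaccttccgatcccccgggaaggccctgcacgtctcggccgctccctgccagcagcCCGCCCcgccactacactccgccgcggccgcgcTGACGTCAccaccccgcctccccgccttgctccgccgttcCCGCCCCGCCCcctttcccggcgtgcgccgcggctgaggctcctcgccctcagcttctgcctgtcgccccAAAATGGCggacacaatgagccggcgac
PPP1CC, chr12:110742842-110743141, minus strand: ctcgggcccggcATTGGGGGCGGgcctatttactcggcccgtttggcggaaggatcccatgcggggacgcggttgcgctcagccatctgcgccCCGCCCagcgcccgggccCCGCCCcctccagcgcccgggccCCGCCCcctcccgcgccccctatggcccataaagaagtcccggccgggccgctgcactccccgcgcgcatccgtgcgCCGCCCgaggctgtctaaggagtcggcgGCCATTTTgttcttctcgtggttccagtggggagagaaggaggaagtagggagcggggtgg
PPP1CB, chr2:28751354-28751653, plus strand: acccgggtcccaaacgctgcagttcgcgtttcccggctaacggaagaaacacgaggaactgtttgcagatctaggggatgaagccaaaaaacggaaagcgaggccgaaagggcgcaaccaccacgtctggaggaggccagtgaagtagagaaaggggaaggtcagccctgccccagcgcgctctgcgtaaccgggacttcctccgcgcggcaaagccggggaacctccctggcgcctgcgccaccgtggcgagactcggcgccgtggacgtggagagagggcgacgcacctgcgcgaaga

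Of the 6 promoter entries of these 5 members, that of PPP1R10 was the only one with a TATAAA match, at -32 to -27 from the start, on the sense strand. Such a match on either strand was present in 11.5% of all 35116 promoters of that length. PPP1R10 also held 2 CCAAT matches, a motif found in 34.6% of promoters, and 3 GC boxes, found in 45.0%. Both motifs also occurred in TOX4 and PPP1CC, and the GC box in WDR82 and the second PPP1CB entry. WDR82 held the only cyclic AMP response element, at -88 to -81, a motif present in 1.85% of promoters. The YY1 core occurred in WDR82 and PPP1CC and in 6.58% of all promoters, and the E-box in no member promoter and in 7.26% of all. The first PPP1CB promoter held none of the 6 motifs. G and C made up 58.7% of the PPP1R10 sequence, equal to the median of all promoters. Their share was 61.3% in TOX4, 72.3% in PPP1CC and 73.7% in WDR82. In the first and second PPP1CB entries it was 64.0% and 76.7%. These are matches of letters in a reference sequence and no binding was measured.

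The libraries carried the markers of the labelled cell type. All 10 luminal prostate epithelial markers had a mean of at least 1 TPM, with a summed level of 1203 to 1215 TPM in vehicle and 433.0 to 437.8 TPM in JMC45. Of 8 fibroblast markers 2 reached that mean (summed level 6.46 to 7.83 TPM over the 4 libraries), and none of 8 leukocyte markers (1.88 to 2.59 TPM, with CD3E and TYROBP listed at 0) or 6 endothelial markers (0.27 to 0.76 TPM, with CDH5 and KDR listed at 0) did. Across all tested genes the transcriptome was shifted: the median log2 change, on the log2(TPM + 1) scale used throughout, was -1.10 on TPM. Values rescaled by median-of-ratios factors, which centre the typical gene on no change and are called ratio-scaled from here on, had a median of -0.01, and quantile-normalized values had 0.02. The limma test called 80.7% of tested genes lower and 4.25% higher on TPM (adjusted p-values below 0.05), and 35.3% lower and 35.5% higher on ratio-scaled values. TPM is relative and carries no depth, so the depth of the libraries is unknown and a change in TPM is a change in a transcript's share. In bulk RNA, fewer cells carrying a transcript and less of it per cell cannot be told apart.

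PPP1R10, the scaffold, was almost lost from the JMC45 libraries. It measured 32.52 and 26.97 TPM in vehicle and 0.43 and 0.58 TPM in JMC45. Both JMC45 libraries lay far below both vehicle libraries, with means of 29.7 ± 3.92 and 0.505 ± 0.106 TPM (SD, n = 2). The mean was 58.9-fold lower in JMC45, and the ratio of a vehicle to a JMC45 library ran from 46.5 to 75.6. The log2 change was -4.35 (SE 0.14), the 6th largest decrease among the 14018 tested genes on this scale and the 77th by fold of mean TPM, and it was -3.43 on ratio-scaled values and -3.26 on quantile-normalized values. Because the JMC45 values are below the pseudocount of 1, the log2(TPM + 1) scale understates this difference, which was -5.63 with a pseudocount of 0.1. Within each library, where no scaling enters, PPP1R10 stood at percentiles 72.7 and 70.2 of the tested genes in vehicle and at 6.40 and 9.79 in JMC45. A transcript in the upper part of the expressed range in vehicle was thus near the bottom of it in JMC45.

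**Figure D1:**
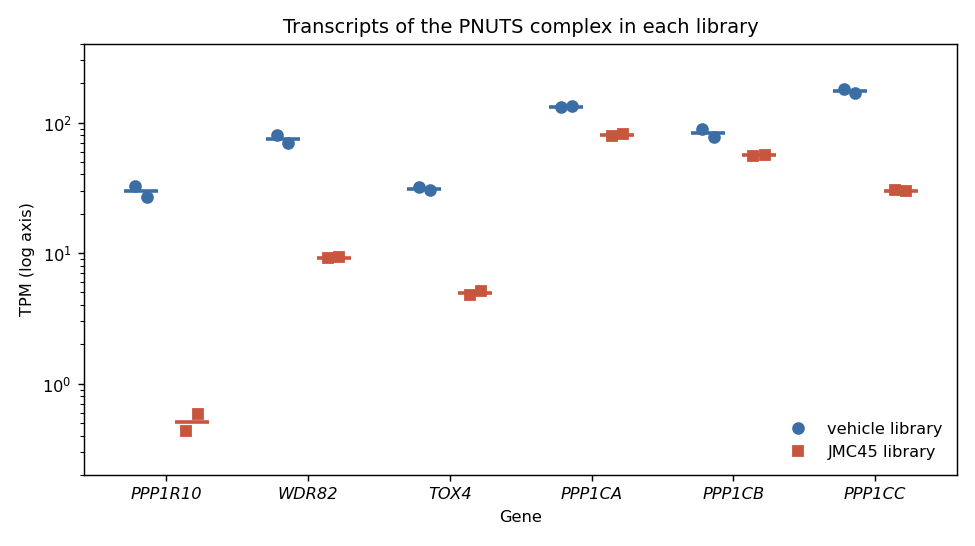
TPM on a log axis (y) of the 6 genes of the PNUTS complex (x). Circles are the 2 vehicle libraries, squares the 2 JMC45 libraries and short lines the group means. PPP1R10 drops from 32.52 and 26.97 TPM to 0.43 and 0.58, while PPP1CA and PPP1CB stay within the range of 55.78 to 133.67 TPM in all libraries.

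WDR82 and TOX4, the other regulatory members, were lower by smaller factors. WDR82 measured 80.71 and 69.44 TPM in vehicle and 9.13 and 9.33 TPM in JMC45 (75.1 ± 7.97 and 9.23 ± 0.141, SD, n = 2). The groups did not overlap, the mean was 8.13-fold lower, and the log2 change was -2.89 (SE 0.10), or -1.59 on ratio-scaled values. TOX4 measured 32.15 and 30.16 TPM in vehicle and 4.75 and 5.14 TPM in JMC45 (31.2 ± 1.41 and 4.95 ± 0.276, SD, n = 2). Its groups did not overlap either, the mean was 6.30-fold lower, and the log2 change was -2.44 (SE 0.10), or -1.19 on ratio-scaled values. In rank within the library, WDR82 went from percentiles 88.7 and 87.4 to 65.7 and 67.1, and TOX4 from 72.5 and 72.8 to 51.4 and 54.3. Both thus stayed among the middle or upper part of the tested genes, unlike PPP1R10.

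The catalytic subunits split into PPP1CC on one side and PPP1CA and PPP1CB on the other. PPP1CC, which encodes the gamma isoform, measured 181.45 and 167.54 TPM in vehicle and 30.55 and 29.68 TPM in JMC45 (174.5 ± 9.84 and 30.1 ± 0.615, SD, n = 2). The groups did not overlap, the mean was 5.79-fold lower, and the log2 change was -2.49 (SE 0.07), or -1.15 on ratio-scaled values. PPP1CA, the alpha isoform, measured 131.43 and 133.67 TPM in vehicle and 78.81 and 82.04 TPM in JMC45 (132.6 ± 1.58 and 80.4 ± 2.28, SD, n = 2). Its TPM was 1.65-fold lower, a log2 change of -0.71 (SE 0.06) that became 0.64 on ratio-scaled values and -0.14 on quantile-normalized values. PPP1CB, the beta isoform, measured 89.79 and 77.68 TPM in vehicle and 55.78 and 56.21 TPM in JMC45 (83.7 ± 8.56 and 56.0 ± 0.304, SD, n = 2). Its TPM was 1.50-fold lower, a log2 change of -0.57 (SE 0.09) that became 0.78 on ratio-scaled values and 0.21 on quantile-normalized values. The direction of PPP1CA and PPP1CB therefore depends on the scaling, and their log2 changes lay 0.39 and 0.53 above that of the median gene on TPM. Their ranks hardly moved, from percentiles 93.5 and 93.7 to 92.7 and 93.2 for PPP1CA and from 89.9 and 88.7 to 90.6 and 90.8 for PPP1CB, whereas PPP1CC went from 95.4 and 95.1 to 84.7 and 84.8.

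The make-up of the PP1 catalytic transcripts shifted accordingly, a comparison within each library that a scaling factor per library does not touch. The summed TPM of the 3 genes was 402.7 and 378.9 in vehicle and 165.1 and 167.9 in JMC45. PPP1CC made up 45.1% and 44.2% of that sum in vehicle and 18.5% and 17.7% in JMC45. PPP1CA made up 32.6% and 35.3% in vehicle and 47.7% and 48.9% in JMC45, and PPP1CB 22.3% and 20.5% against 33.8% and 33.5%. The share of PPP1CC was thus lower and the shares of the other 2 higher in both JMC45 libraries than in both vehicle libraries. The TPM ratio of PPP1CC to PPP1CA was 1.38 and 1.25 in vehicle and 0.388 and 0.362 in JMC45, so the most abundant isoform was PPP1CC in both vehicle libraries and PPP1CA in both JMC45 libraries. The ratio of PPP1CA to PPP1CB was 1.46 and 1.72 in vehicle and 1.41 and 1.46 in JMC45, and the means differed by less than the SD of the vehicle libraries (0.182).

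**Figure D2:**
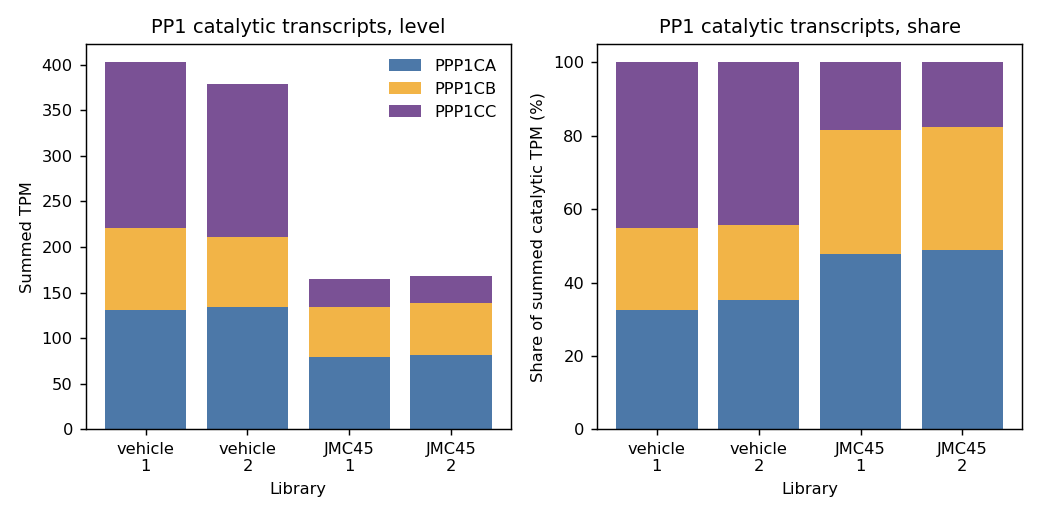
Level (left, summed TPM) and share (right, percent of the summed TPM) of PPP1CA, PPP1CB and PPP1CC transcripts in each of the 4 libraries (x). PPP1CC takes 45.1% and 44.2% of the catalytic transcripts in vehicle and 18.5% and 17.7% in JMC45.

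The scaffold transcript was also lower relative to its partners. For every 100 TPM of catalytic transcripts there were 8.08 and 7.12 TPM of PPP1R10 in vehicle and 0.260 and 0.345 TPM in JMC45. For WDR82 the same ratio was 20.0 and 18.3 in vehicle and 5.53 and 5.56 in JMC45, and for TOX4 7.98 and 7.96 against 2.88 and 3.06. The TPM ratio to PPP1R10 was 0.989 and 1.12 for TOX4 and 2.48 and 2.57 for WDR82 in the vehicle libraries. In JMC45 these ratios were 11.0 and 8.86 for TOX4 and 21.2 and 16.1 for WDR82. These ratios restate the members' own differences, known when the set was chosen, so that they separate the groups is not a further result. Those with PPP1R10 in JMC45 rest on its 0.43 and 0.58 TPM.

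The order of the levels in vehicle, by mean TPM, was PPP1CC, PPP1CA, PPP1CB, WDR82, TOX4 and PPP1R10. In that order the ranges of PPP1CB and WDR82 overlapped, as did those of TOX4 and PPP1R10, while the other neighbours were separated by more than their ranges. In JMC45 the order was PPP1CA, PPP1CB, PPP1CC, WDR82, TOX4 and PPP1R10, with no overlap between neighbours. The groups did not overlap for 6 of 6 members, all lower in JMC45 on TPM, which was also so for 85.7% of all tested genes, and limma called 6 of 6 lower, against 80.7% of all. On ratio-scaled values 4 were called lower (35.3% of all) and 2, PPP1CA and PPP1CB, higher (35.5% of all), and on quantile-normalized values 4 were called lower (32.8% of all) and 0 higher (33.6% of all). The median log2 change of the 6 was -2.46, beside -1.10 over all tested genes, and 4 of the 6 were at -2 or lower, as were 15.4% of all tested genes. Since the members were chosen on this contrast, these counts are a description.

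**Figure D3:**
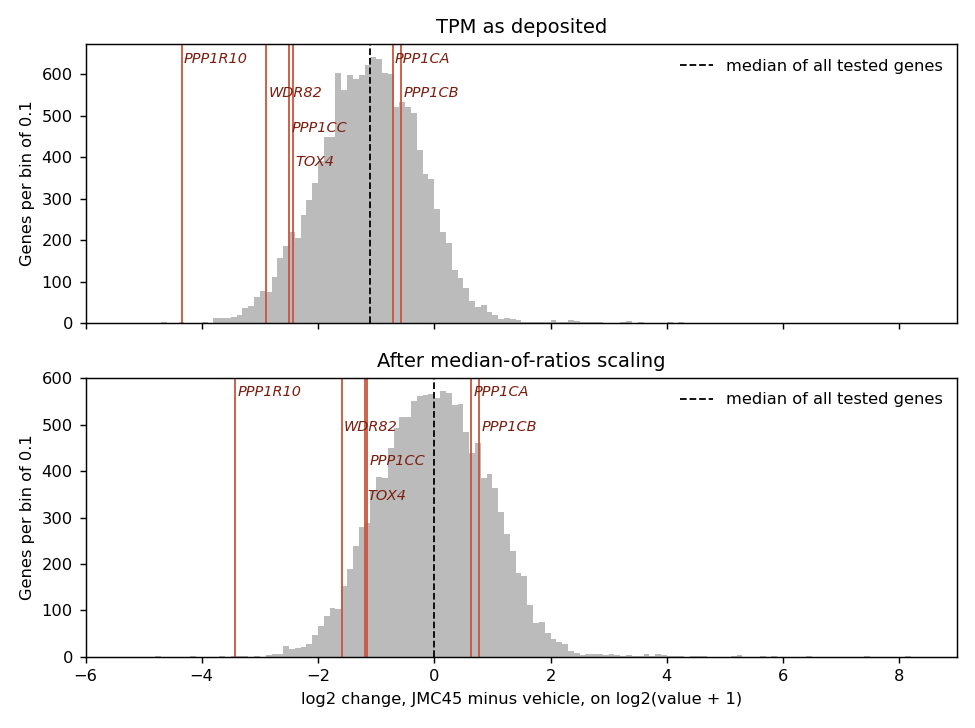
Number of tested genes per bin of 0.1 (y) by log2 change, JMC45 minus vehicle (x), on TPM as deposited (top) and on ratio-scaled values (bottom). Red lines mark the 6 members and the dashed line the median gene (-1.10 and -0.01); PPP1CA (-0.71 and 0.64) and PPP1CB (-0.57 and 0.78) lie above the median in both panels, and PPP1R10 (-4.35 and -3.43) lies at the lower edge.

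Several members overlap other genes, which bears on how far their TPM can be assigned. In GENCODE release 29, PPP1R10 overlaps the mitochondrial ribosomal protein gene MRPS18B on the opposite strand by 904 bases at their starts, and MRPS18B measured 121.29 and 114.36 TPM in vehicle and 40.8 and 38.69 TPM in JMC45. MRPS18B thus stayed far above PPP1R10 in JMC45. TOX4 overlaps METTL3 by 1043 bases and RAB2B by 377 bases, PPP1CA overlaps CARNS1, TBC1D10C and RAD9A, and WDR82 overlaps GLYCTK, all on opposite strands, and PPP1CB overlaps SPDYA on the same strand. The kit keeps strand, but the sources used here do not state whether the quantification used it. The pseudogenes WDR82P1, WDR82P2, TOX4P1 and PPP1R10P1 were listed at 0 in all 4 libraries. The annotated exonic lengths of the members ran from 2711 bases (PPP1CA) to 7091 bases (TOX4), and their genomic spans from 18213 bases (PPP1R10) to 51301 bases (PPP1CB). In order of rising span, PPP1R10 had a log2 change of -4.35, TOX4 (22579 bases) -2.44 and PPP1CA (23001 bases) -0.71. PPP1CC (23260 bases) had -2.49, WDR82 (33600 bases) -2.89 and PPP1CB -0.57. Any relation of span to the difference was not tested.

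Other PP1 regulatory subunits, which direct the same catalytic subunits elsewhere, mostly fell on TPM, as did most genes. Of 51 listed genes 36 were tested, of which 31 fell, 1 rose and 4 did not pass (PPP1R1B, PPP1R3F, PPP1R12B and PPP1R16A, named after their values were seen), with a median log2 change of -1.42. The share of all tested genes called lower was 80.7%, and their median was -1.10. On ratio-scaled values 17 fell and 10 rose (35.3% and 35.5% of all tested genes). On quantile-normalized values 15 fell and 12 rose (32.8% and 33.6% of all). On log2(TPM + 1), PPP1R8, the other main nuclear PP1 scaffold (NIPP1), decreased most, from 46.59 and 45.89 TPM to 4.79 and 4.60 TPM (log2 change -3.05, SE 0.09, limma adjusted p = 9.25e-06), a fold of means of 9.85. By fold of means PPP1R3D, a glycogen-targeting subunit named after its values were seen, decreased most, from 2.84 and 2.68 TPM to 0.18 and 0.15 TPM (16.7-fold). CDCA2, which recruits PP1 to chromosomes at mitotic exit, fell by 2.72, the inhibitor PPP1R11 by 2.61 and SHOC2, a scaffold for PP1 in RAS signalling, by 2.33 on the log2 scale. The log2 change of PPP1R10 lay below that of every tested gene of this list, whose lowest was -3.05. PPP1R14B, a PP1 inhibitor, was the gene that rose, from 251.2 and 250.12 TPM to 346.37 and 313.59 TPM. Its log2 change was 0.39 (limma adjusted p = 0.00191), with 1.75 on ratio-scaled values and 0.74 on quantile-normalized values. After scaling each library to the same mitochondrial TPM sum it was -0.07, beside a median of -1.47 over all tested genes. Among genes outside the naming rule, PPP1R7, a conserved partner of all 3 catalytic subunits, had a log2 change of -0.32 on TPM, 1.04 on ratio-scaled values and 0.19 on quantile-normalized values.

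The partners that WDR82 has outside the PNUTS complex all fell on TPM, as did 80.7% of all tested genes. Of 11 listed genes 11 were tested and 11 fell, with a median of -1.39 beside -1.10 over all. In contrast, 5 fell and 3 rose on ratio-scaled values (35.3% and 35.5% of all). Quantile-normalized values had 5 lower and 2 higher (32.8% and 33.6% of all). ZC3H4, which with WDR82 restricts transcription of noncoding units, went from 13.66 and 15.82 TPM to 1.16 and 1.21 TPM (log2 change -2.85, SE 0.13, limma adjusted p = 1.37e-05). This lies near the -2.89 of WDR82, but by means ZC3H4 was 12.4-fold and WDR82 8.13-fold lower, and a pseudocount of 0.1 gave -3.53 and -3.01. The shared methyltransferase subunits RBBP5 and ASH2L fell by 2.30 and 2.03, and the methyltransferase SETD1B by 1.64. The 3 that rose on ratio-scaled values, named after their values were seen, were CXXC1 (0.82), WDR5 (0.43) and DPY30 (0.51). They had -0.50, -0.89 and -0.84 on TPM, and 0.57, 0.19 and -0.27 on quantile-normalized values. Of the relatives of TOX4, TOX and TOX2 did not reach the filter, and TOX3 had a log2 change of -0.74 on TPM (limma adjusted p = 0.00191), 0.47 on ratio-scaled values and 0.62 on quantile-normalized values.

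**Figure D4:**
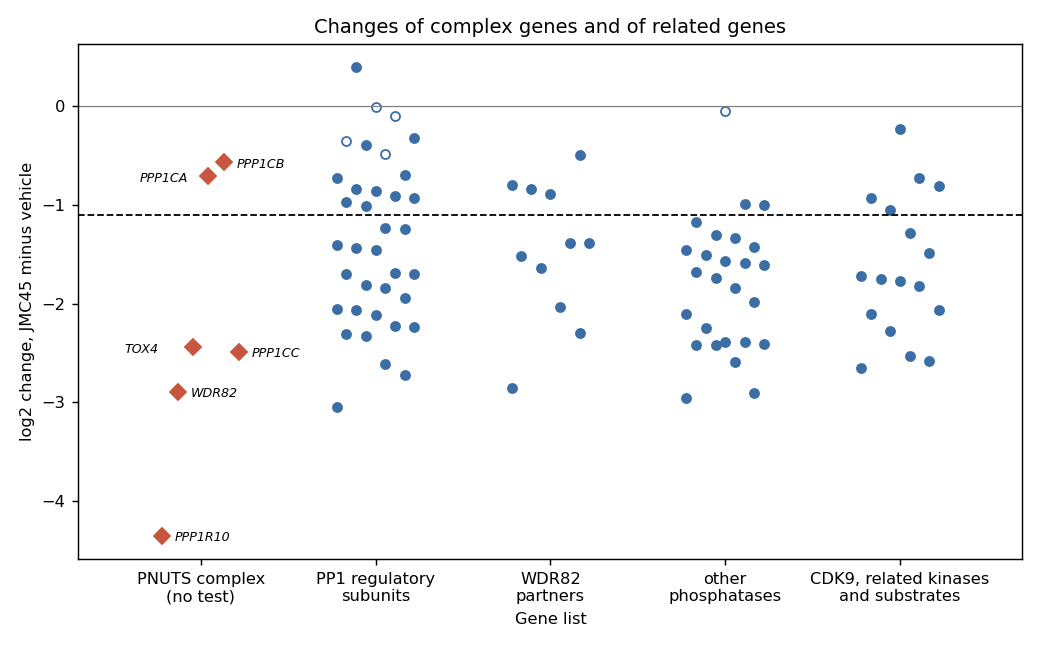
Log2 change, JMC45 minus vehicle on TPM (y), of the 6 members of the complex (diamonds, no test) and of the tested genes of 4 related lists (x). Filled circles passed the limma test and open circles did not, the dashed line is the median of all tested genes (-1.10), and PPP1R10 (-4.35) lies below every circle.

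On the kinase side, CDK9 itself and the substrates shared with the complex were lower on TPM as well. CDK9 mRNA measured 20.15 and 22.45 TPM in vehicle and 4.93 and 3.78 TPM in JMC45 (log2 change -2.06, SE 0.14, limma adjusted p = 3.85e-05). A degrader, as the title describes the compound, acts on the protein, so the mRNA level does not check the labels. PPP1R10 was thus lower by a larger factor (58.9-fold) than CDK9 (4.89-fold), and TOX4, WDR82 and PPP1CC by factors of 5.79 to 8.13. All 17 tested genes of this list, which holds CDK9, related kinases, pausing factors, the polymerase, XRN2 and MYC, fell on TPM. Their median log2 change was -1.75, beside 80.7% called lower and -1.10 over all tested genes. Ratio-scaled values had 10 lower and 4 higher (35.3% and 35.5% of all), and quantile-normalized values 12 lower and 3 higher (32.8% and 33.6%). MYC (-2.65), the kinases CDK7 (-2.58) and CDK13 (-2.53) and the large polymerase subunit POLR2A (-2.28) had the largest decreases on log2(TPM + 1). Their order depends on the pseudocount, since by means CDK13 was 7.01-fold, CDK7 6.86-fold and MYC 6.64-fold lower. SUPT5H, which encodes the substrate SPT5 and was singled out after its value was seen, had 47.9 and 44.68 TPM in vehicle and 40.61 and 38.13 TPM in JMC45, a log2 change of -0.23 that became 1.10 on ratio-scaled values and 0.70 on quantile-normalized values.

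Genes of other phosphatases and of some of their subunits also fell on TPM in 25 of 26 cases. Their median was -1.71, beside 80.7% called lower and -1.10 over all tested genes. On ratio-scaled values 15 fell and 3 rose (35.3% and 35.5% of all), and on quantile-normalized values 19 fell and 1 rose (32.8% and 33.6%). The PP4 regulatory subunit genes PPP4R2 (-2.96) and PPP4R3A (-2.90) had the largest decreases on the log2(TPM + 1) scale. Next were INTS6 (-2.59), part of the Integrator module that brings PP2A to the polymerase, and the polymerase tail phosphatase CTDSP2 (-2.42). A further PP4 regulatory subunit, PPP4R3B, had -1.51 and the catalytic PPP4C -1.31, both named after their values were seen. Neither was called on ratio-scaled values (-0.23 and 0.03). On quantile-normalized values PPP4C was called lower (-0.45) and PPP4R3B was not called (-0.24). PPP2R1A, which encodes one of the PP2A scaffold isoforms and is the 1 gene that did not pass, measured 101.72 and 103.59 TPM in vehicle and 104.82 and 94.22 TPM in JMC45. Its log2 change was -0.05, whereas that of PPP2R1B, the other PP2A scaffold isoform, was -2.25, from 22.26 and 17.77 TPM to 3.27 and 3.50 TPM. On ratio-scaled and quantile-normalized values PPP2R1A was called higher (1.3 and 0.55) and PPP2R1B lower (-1.06 and -0.9).

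The genes whose 4 library values were most like those of each member were found by Euclidean distance on log2(TPM + 1) after subtracting the vehicle mean, among 8746 named genes with a mean of at least 5 TPM. The nearest to PPP1R10 were GPANK1 (distance 0.25), HNRNPDL (0.422) and MEPCE (0.473). GPANK1 measured 33.23 and 33.2 TPM in vehicle and 0.72 and 0.61 TPM in JMC45. PPP1R10 had 32.52 and 26.97 TPM in vehicle and 0.43 and 0.58 TPM in JMC45, so GPANK1 was the higher in each library. The other members had closer neighbours, TAF6L for WDR82 (0.0346), ZW10 for TOX4 (0.0365), CHCHD3 for PPP1CA (0.0213), NUDT21 for PPP1CB (0.0133) and EFNB2 for PPP1CC (0.0121). This likeness holds on the log2(TPM + 1) scale, which compresses low levels. With a pseudocount of 0.1 EFNB2 had a log2 change of -3.27 and PPP1CC -2.53. Few genes lay near PPP1R10, where the distribution is thin, and 4 libraries cannot separate genes of like change.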

How the data were processed

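Poly(A)-selected RNA of 22Rv1 cells was sequenced in 4 libraries, 2 in each group. The authors deposited TPM for each Ensembl gene, per the file headers. The tools fastp, HISAT2 and StringTie are named in the submitters' processing notes. Their versions and roles, the genome build, the annotation and the use of strand were not given in the sources used here. The columns named as controls were assigned to the vehicle libraries by name and number. The table held 63241 genes and 50 lines without values, which were left out, and 62666 genes matched a symbol.

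Genes with a mean of at least 1 TPM were tested as log2(TPM + 1) with limma 3.58.1 in R 4.3.3 (two-sided, intensity trend), no replicate block, and Benjamini-Hochberg adjustment over all 14018 genes at 0.05. The test was checked on simulated data. Promoters came from RefSeq (GRCh38.p14) and gene properties from GENCODE release 29. Summaries used Python 3.11.15 with numpy 2.4.6 and pandas 2.3.3, and figures matplotlib 3.10.9. The members, gene lists and tests were chosen with earlier results of these data known. Genes named were the members, CDK9 and MYC, up to 4 genes per list with the largest absolute log2 change past the threshold, any called against its list, and the 3 genes most like each member. Of those like genes, the text names all 3 for PPP1R10 and the nearest for the others. The alternatives were another pseudocount, other filters, 4 other scalings, no trend, a replicate block and each library left out.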

Additional observations from a re-analysis of the deposited data

How the results depend on the processing

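Log2 changes of the members, in the order PPP1R10, WDR82, TOX4, PPP1CA, PPP1CB and PPP1CC, moved by more than the spread between replicates under several settings. Median-of-ratios scaling gave -3.43, -1.59, -1.19, 0.64, 0.78 and -1.15, and quantile normalization -3.26, -1.74, -1.12, -0.14, 0.21 and -1.74, so PPP1CA reversed under the former and PPP1CB under both. Holding the mitochondrially encoded total equal gave -4.66, -3.33, -2.85, -1.17, -1.02 and -2.95. Without the mitochondrially encoded genes WDR82, TOX4, PPP1CA, PPP1CB and PPP1CC had -2.78, -2.35, -0.57, -0.43 and -2.36, and a pseudocount of 0.1 gave -5.63, -3.01 and -2.63 for PPP1R10, WDR82 and TOX4. The median of all tested genes was -0.01, 0.02, -1.47, -1.04 and -1.34 in these 5 settings.

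Leaving out 1 library at a time gave log2 changes of -4.48 to -4.22 for PPP1R10, -3.0 to -2.78 for WDR82, -2.48 to -2.39 for TOX4, -0.74 to -0.69 for PPP1CA, -0.67 to -0.47 for PPP1CB and -2.55 to -2.44 for PPP1CC. In these fits the lone library of a group is assumed to vary like the other group.

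Over all genes, 11311 lower and 596 higher calls on TPM became 4944 and 4982 under median-of-ratios scaling, 4595 and 4717 under quantile normalization, and 181 higher with the mitochondrially encoded total held equal. Leaving out 1 library gave 10513 to 11083 lower and 425 to 530 higher calls. In the lists, median-of-ratios scaling gave 17 lower and 10 higher PP1 regulatory subunits, 5 and 3 WDR82 partners, 15 and 3 other phosphatases, 10 and 4 genes of the kinase side, and 0 and 1 TOX4 relatives. Quantile normalization gave 15 and 12, 5 and 2, 1 higher phosphatase, 3 higher genes of the kinase side, and 0 and 1 TOX4 relatives. With the mitochondrially encoded total held equal 0 PP1 regulatory subunits rose, since PPP1R14B was at -0.07.

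Of 480 values of 37 named genes outside the complex under the alternatives, 465 kept their direction and side of the threshold, 14 reversed and 1 was no longer called (ACP1, -0.16 on quantile normalization). The other filters, no trend and the replicate block cannot change a log2 change. In those settings the direction was fixed in advance and only the side of the threshold could move. Reversed on median-of-ratios scaling were ACP1 (0.65), CHCHD3 (0.62), DHRS1 (0.57), LIMS1 (0.73), NUDT21 (0.78), TMED5 (0.74) and TOX3 (0.47), and on quantile normalization CHCHD3 (0.01), DHRS1 (0.55), LIMS1 (0.64), NUDT21 (0.16), TMED5 (0.56) and TOX3 (0.62).

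Samples with the same replicate number did not deviate together (correlation of deviations -0.05 across genes), and 2 pairs cannot show pairing. With the replicate block, 11380 genes were called lower and 613 higher. The members' log2 changes were the same as without it, which a balanced block must give. Depth is unknown, so what depth limits for PPP1R10 at 0.43 and 0.58 TPM cannot be given.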
